A study of Mus musculus with 6 samples.

Results

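The genes described here encode 10 proteins of the junctions that join epithelial cells, measured by bulk RNA sequencing of mouse liver: the claudins Cldn1, Cldn2, Cldn3, Cldn4, Cldn7, Cldn12 and Cldn14, the cadherins Cdh1 (E-cadherin) and Cdh2 (N-cadherin), and the connexin Gjb1 (connexin 32). They were taken by name from a deposited table of 56350 genes, all 10 were found there, and all 10 passed the filter on low counts, as did 16051 genes in all. The liver samples were 3 from mice with a hepatocyte-specific Atg14 knockout (HepKO) and 3 from wild-type mice (WT). Atg14 is an autophagy gene whose protein directs a lipid kinase to the sites where autophagosomes form, and the comparison asks how liver gene expression differs when hepatocytes lack it. The labels give no age, sex, diet, Cre line or allele. They also leave unsaid whether each sample is a different mouse. The p-values therefore speak only of the spread among these 6 libraries, which may be technical in part.

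Hepatocytes are polarised cells that press their apical faces together to form the bile canaliculus. Tight junctions seal the canaliculus from the blood side: claudins are membrane proteins whose outer loops either close the space between cells or make it selectively permeable. Adherens junctions hold neighbouring cells together through cadherins, which bind the same kind of cadherin on the next cell and reach the actin skeleton through catenins. Mouse hepatocytes carry both E-cadherin, mainly in the periportal part of the lobule, and N-cadherin. Gap junctions are channels built of connexins through which neighbouring hepatocytes share ions and small molecules, and connexin 32 is the main one. Cholangiocytes, the epithelial cells of bile ducts, also make E-cadherin and several claudins.

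Total counts per library were 33145684 to 48951937 in HepKO and 35720011 to 41754560 in WT. Levels are in CPM, the standard measure of read counts relative to library size, here with sizes scaled by the trimmed mean of M-values (TMM). TMM factors were 1.19 to 1.21 in HepKO and 0.824 to 0.860 in WT, and the median log2 fold change (HepKO over WT) over the tested genes stood at 0.01 with TMM and at 0.52 with unscaled library totals, and the folds below hold relative to the scaling used. Atg14 had 5.67, 8.45 and 7.95 CPM in HepKO replicates 1 to 3, against 20.95, 22.2 and 21.05 CPM in WT replicates 1 to 3 (log2 fold change -1.54 ± 0.16 SE, adjusted p = 4.69e-04 by the quasi-likelihood test of edgeR). HepKO replicate 1 stood apart in its sex-linked genes, with 30377 counts of Xist and 3 of the Y-linked Ddx3y, against 2 to 22 and 2596 to 3482 in the other 5 libraries. The labels give no sex, and results without that library are given beside the junction genes. The liver label held against its markers: albumin (Alb) had a mean of 33790 CPM in HepKO and 78750 CPM in WT.

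Of the 10 junction genes, 6 were called, meaning that edgeR's p after Benjamini-Hochberg adjustment over all tested genes was under 0.05, 3 higher and 3 lower in HepKO. Among all tested genes 38.2% were called, 19.5% higher and 18.7% lower. E-cadherin, claudin 1 and claudin 4 rose, each by more than 2-fold, and none of the 10 fell by as much. By at least 2-fold, 18.6% of all tested genes were called, 12.9% higher and 5.74% lower. Claudin 12, N-cadherin and connexin 32 fell by 1.25-fold to 1.40-fold under TMM, but under library totals none of the 3 was called and all 3 had slightly positive log2 fold changes. Claudins 2, 3, 7 and 14 were not called. The median log2 fold change of the 10 was 0.37, beside 0.01 for all tested genes. The HepKO and WT libraries did not overlap in 7 of the 10 genes, a separation found in 53.5% of all tested genes. Without HepKO replicate 1, 4 of the 10 were called higher (Cldn1, Cldn3, Cldn4 and Cdh1) and 2 lower (Cldn12 and Gjb1), where 33.9% of all genes passed, 16.3% upward and 17.5% downward. Without HepKO replicate 2, and likewise without WT replicate 3, 1 of the 10, Cldn12, was called lower, where 14.1% and 12.2% of all genes were, and 3 were called higher, where 15.0% and 13.9% were. Under library totals 6 of the 10 were called higher (Cldn1, Cldn2, Cldn3, Cldn4, Cldn14 and Cdh1) and 0 lower, where 52.2% of all tested genes were called, 46.4% higher and 5.84% lower.

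**Figure D1:**
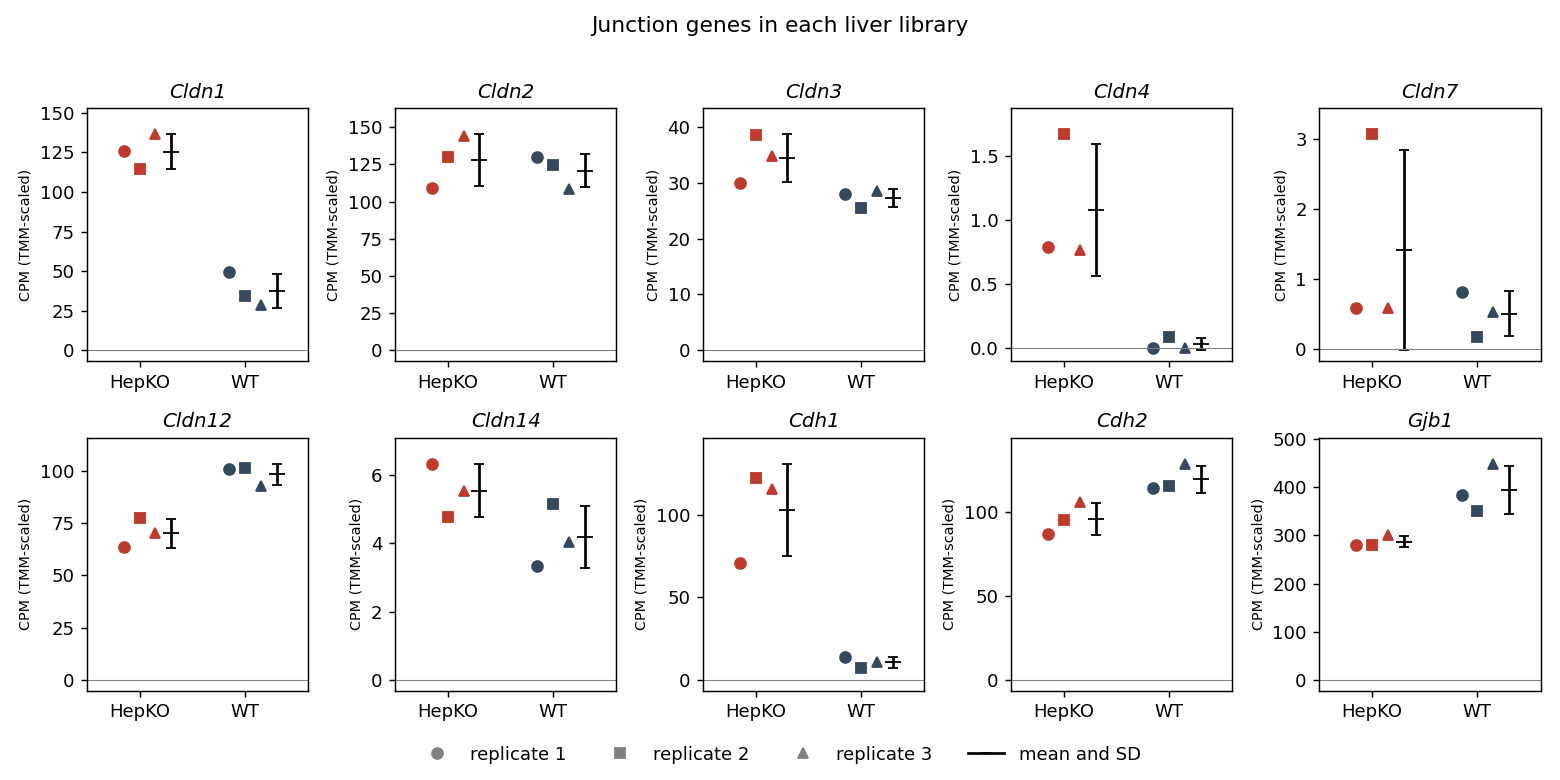
Level of each of the 10 junction genes in CPM on a TMM-scaled linear axis, with HepKO libraries left of WT libraries, 1 marker shape for each replicate number, and black bars for the mean and SD of 3 libraries. Cdh1, Cldn1 and Cldn4 have each HepKO library above each WT library, Cldn12, Cdh2 and Gjb1 lie lower on this scale but not under library totals, and Cldn2, Cldn7 and Cldn14 overlap.

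E-cadherin changed more than any other of the 10 genes that had over 3 counts in each group. Cdh1 (ENSMUSG00000000303.12) is a protein-coding gene on chromosome 8, plus strand, at 106603351 to 106670246 of the mouse build GRCm38 (mm10), as are the coordinates that follow. Its level was 70.99, 122.3 and 116.1 CPM in HepKO replicates 1 to 3 (4123, 5486 and 4569 counts), against 13.8, 7.19 and 10.8 CPM in WT replicates 1 to 3 (409, 258 and 370 counts). The lowest HepKO library was thus well above the highest WT library, and HepKO replicate 1 was the lowest of its group. The means were 103.1 ± 28 CPM in HepKO and 10.6 ± 3.32 CPM in WT (SD, n = 3 each), 9.73-fold higher in HepKO (log2 fold change 3.28 ± 0.29 SE, adjusted p = 2.36e-04 in edgeR's test). Its log2 fold change was 3.49 without HepKO replicate 1 (adjusted p = 2.15e-04), and 3.09 to 3.80 over all alternatives.

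N-cadherin, the other classical cadherin of hepatocytes, was slightly lower under TMM, with a weak call. Cdh2 (ENSMUSG00000024304.14) lies on chromosome 18 (minus strand) at 16588877 to 16809246. It had 86.8, 95.2 and 105.7 CPM in HepKO replicates 1 to 3, against 114.2, 115.3 and 128.7 CPM in WT replicates 1 to 3. The groups did not overlap, but the gap between the highest HepKO and the lowest WT library was small. The means were 95.9 ± 9.43 CPM in HepKO and 119.4 ± 8.09 CPM in WT (SD, n = 3 each; log2 fold change -0.32 ± 0.11 SE, adjusted p = 0.0487 in edgeR's test). The call was lost when any of 5 of the 6 libraries was left out (adjusted p 0.0742 to 0.19) and held without HepKO replicate 3 (0.0449), and under library totals the log2 fold change was 0.20 (adjusted p = 0.15).

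The balance between the cadherins does not depend on the scaling between libraries, because both are counted in the same library. The log2 ratio of Cdh2 to Cdh1 counts was 0.29, -0.36 and -0.14 in HepKO replicates 1 to 3, against 3.05, 4.001 and 3.57 in WT replicates 1 to 3. The mean difference was -3.61 on the log2 scale, with no overlap (exact 2-sided permutation test, p = 0.1, adjusted p = 0.1 over 5 ratios, the smallest p that 3 against 3 libraries allow). Counted per exon length, Cdh1 made up 59.05%, 69.4% and 65.95% of the 2 cadherins in HepKO, against 17.6%, 9.91% and 12.9% in WT. By this per-length measure, E-cadherin mRNA was the more abundant of the pair in each HepKO library and the less abundant in each WT library. In counts alone, Cdh2 was the higher of the pair in HepKO replicate 1 (log2 ratio 0.29). The order in that library thus rests on the annotated exon lengths, which may differ from those of the transcripts expressed.

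Claudin 1, a sealing claudin and in humans an entry factor of hepatitis C virus, rose in all 3 HepKO libraries. Cldn1 (ENSMUSG00000022512.3) lies on chromosome 16 (minus strand) at 26356642 to 26371841. It had 125.7, 114.6 and 136.4 CPM in HepKO replicates 1 to 3, against 49.5, 34.2 and 28.4 CPM in WT replicates 1 to 3. The lowest HepKO library was more than 2-fold above the highest WT library. The means were 125.6 ± 10.9 CPM in HepKO and 37.3 ± 10.9 CPM in WT (SD, n = 3 each), 3.36-fold higher (log2 fold change 1.75 ± 0.20 SE, adjusted p = 5.77e-04 in edgeR's test), and 1.74 on the log2 scale without HepKO replicate 1.

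Claudin 4, a barrier claudin found in bile ducts and many other epithelia, rose in HepKO but stayed rare, and was close to absent in WT. Cldn4 (ENSMUSG00000047501.3) lies on chromosome 5 (minus strand) at 134945119 to 134946934. It had 46, 75 and 30 counts in HepKO replicates 1 to 3, against 0, 3 and 0 counts in WT replicates 1 to 3. These counts correspond to 0.792, 1.67 and 0.762 CPM in HepKO, against 0, 0.0836 and 0 CPM in WT. HepKO replicate 2 was the highest library, and all 3 WT counts came from a single library. The ratio of the scaled group sums was 35.2 (95% counting interval 11.8 to 173, which covers counting error only), and edgeR called the difference (adjusted p = 0.00486). The ratio was 23.2 without WT replicate 3. With WT replicate 2 left out, WT had 0 counts, and taking 3 counts as the limit for the group makes Cldn4 at least 22.6-fold higher in HepKO.

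Claudin 3, a further sealing claudin, is the genomic neighbour of Cldn4, with 39279 bases between them. It differed in the same direction, by much less. Cldn3 (ENSMUSG00000070473.4) lies on chromosome 5 (plus strand) at 134986214 to 134987472. It had 29.9, 38.5 and 34.8 CPM in HepKO replicates 1 to 3, against 28.04, 25.5 and 28.5 CPM in WT replicates 1 to 3. All 3 HepKO libraries were higher than any WT library, by a small margin. The log2 fold change was 0.33 ± 0.12 (SE), which edgeR did not call (adjusted p = 0.057). It was called without HepKO replicate 1 (log2 fold change 0.42, adjusted p = 0.0229) and under library totals (0.84, adjusted p = 8.77e-04). An antisense gene, Wbscr25, shares 40 exon bases with Cldn3 but had at most 3 counts in a library.

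The sequences around the starts of Cldn4, Cldn3 and Cldn1 are shown side by side. Cldn4 and Cldn1 rose, and Cldn3, the neighbour of Cldn4, was slightly higher without a call in the main fit. The sequences are RefSeq promoter windows of 300 bases on GRCm38.p6, from 250 bases before to 50 after the annotated start, and read 5′ to 3′ along the gene. Capitals mark matches on either strand to CACCTG, an E-box bound by repressors of the Snail and Zeb families, or to TGACTCA, the AP-1 motif. Both motifs were chosen after the values and the sequences had been seen, and no match overlaps another.
Cldn4 (chr5:134946885-134947184, minus strand): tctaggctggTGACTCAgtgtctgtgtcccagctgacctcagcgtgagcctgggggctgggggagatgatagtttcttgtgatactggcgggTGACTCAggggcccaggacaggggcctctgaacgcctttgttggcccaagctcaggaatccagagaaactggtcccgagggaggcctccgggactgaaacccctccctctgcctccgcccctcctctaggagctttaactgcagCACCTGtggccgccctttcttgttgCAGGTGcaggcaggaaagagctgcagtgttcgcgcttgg
Cldn3 (chr5:134985964-134986263, plus strand): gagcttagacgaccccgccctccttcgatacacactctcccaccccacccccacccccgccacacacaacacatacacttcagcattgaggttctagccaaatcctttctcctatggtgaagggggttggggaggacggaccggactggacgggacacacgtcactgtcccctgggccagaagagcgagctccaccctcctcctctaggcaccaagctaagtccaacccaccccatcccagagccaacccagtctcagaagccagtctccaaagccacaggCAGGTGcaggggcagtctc
Cldn1 (chr16:26371790-26372089, minus strand): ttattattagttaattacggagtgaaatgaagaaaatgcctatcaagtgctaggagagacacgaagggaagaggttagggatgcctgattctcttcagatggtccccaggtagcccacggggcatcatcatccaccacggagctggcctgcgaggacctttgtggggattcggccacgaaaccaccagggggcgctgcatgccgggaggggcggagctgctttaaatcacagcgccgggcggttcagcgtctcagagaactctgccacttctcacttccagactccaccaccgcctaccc

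The Cldn4 window held 2 matches to each motif, the Cldn3 window 1 E-box and no AP-1 match, and the Cldn1 window neither. Promoter windows were matched for 8 of the 10 genes, without Cdh1 and Cdh2, and the 8 had 16 windows. An E-box was found in 5 of these 16 windows and an AP-1 match in 1 of them, that of Cldn4. Over all 32851 windows of the same length, 20.2% held the E-box and 5.2% the AP-1 motif. A match describes letters in the window and does not show that a factor binds there.

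Claudin 12, an atypical claudin linked to calcium permeability in the gut of mice, fell under TMM. Cldn12 (ENSMUSG00000046798.14) lies on chromosome 5 (minus strand) at 5489537 to 5514958. It had 63.5, 77.4 and 70.1 CPM in HepKO replicates 1 to 3, against 101, 101.7 and 92.7 CPM in WT replicates 1 to 3. No HepKO library reached the lowest WT library. The means were 70.3 ± 6.95 CPM in HepKO and 98.4 ± 5.03 CPM in WT (SD, n = 3 each), 1.40-fold lower in HepKO (log2 fold change -0.49 ± 0.10 SE, adjusted p = 0.00808 in edgeR's test). The call held without each library in turn, but under library totals the log2 fold change was 0.03 (adjusted p = 0.857).

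Claudin 2, which forms a channel for cations and water and in rat liver is highest near the central vein, had overlapping groups. The Cldn2 level was 109.2, 130 and 144.1 CPM in HepKO replicates 1 to 3, against 129.7, 124.6 and 108.3 CPM in WT replicates 1 to 3 (log2 fold change 0.08 ± 0.13 SE, adjusted p = 0.663 in edgeR's test). Under library totals it was called higher (log2 fold change 0.59, adjusted p = 0.00714), close to the 0.52 by which the median of all genes shifts there. Cldn2 and Gjb1 lie on the X chromosome. HepKO replicate 1, the library with Xist, was the lowest HepKO library for Cldn2 and the middle one for Gjb1. Claudin 14, which limits cation passage and is known for inherited deafness, had 6.34, 4.77 and 5.54 CPM in HepKO replicates 1 to 3, against 3.35, 5.15 and 4.04 CPM in WT replicates 1 to 3. Its groups overlapped and it was not called (log2 fold change 0.41 ± 0.23 SE, adjusted p = 0.195 in edgeR's test), but it was under library totals (0.91, adjusted p = 0.0126).

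Claudin 7, which in epithelia binds the adhesion protein EpCAM, was high in a single library. Cldn7 had 0.585, 3.08 and 0.584 CPM in HepKO replicates 1 to 3, against 0.811, 0.167 and 0.527 CPM in WT replicates 1 to 3. HepKO replicate 2 alone lay above the WT range, and the other HepKO libraries lay inside it. The 2.83-fold difference was not called (adjusted p = 0.189 in edgeR's test), and its log2 value was 0.23 without HepKO replicate 2.

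Connexin 32, the main gap junction protein of hepatocytes, was the most abundant of the 10 and was lower in HepKO under TMM. Gjb1 (ENSMUSG00000047797.14) lies on the plus strand of the X chromosome, from 101376378 to 101385629. It had 280.5, 279.6 and 300.9 CPM in HepKO replicates 1 to 3, against 384.5, 351.2 and 448.6 CPM in WT replicates 1 to 3. The 3 HepKO libraries were close together and below all WT libraries. The means were 287 ± 12 CPM in HepKO and 394.8 ± 49.5 CPM in WT (SD, n = 3 each), 1.38-fold lower (log2 fold change -0.46 ± 0.12 SE, adjusted p = 0.0175 in edgeR's test). The call was lost without HepKO replicate 2 (adjusted p = 0.0588) and without WT replicate 3 (0.0621), and under library totals the log2 fold change was 0.05 (adjusted p = 0.706).

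**Figure D2:**
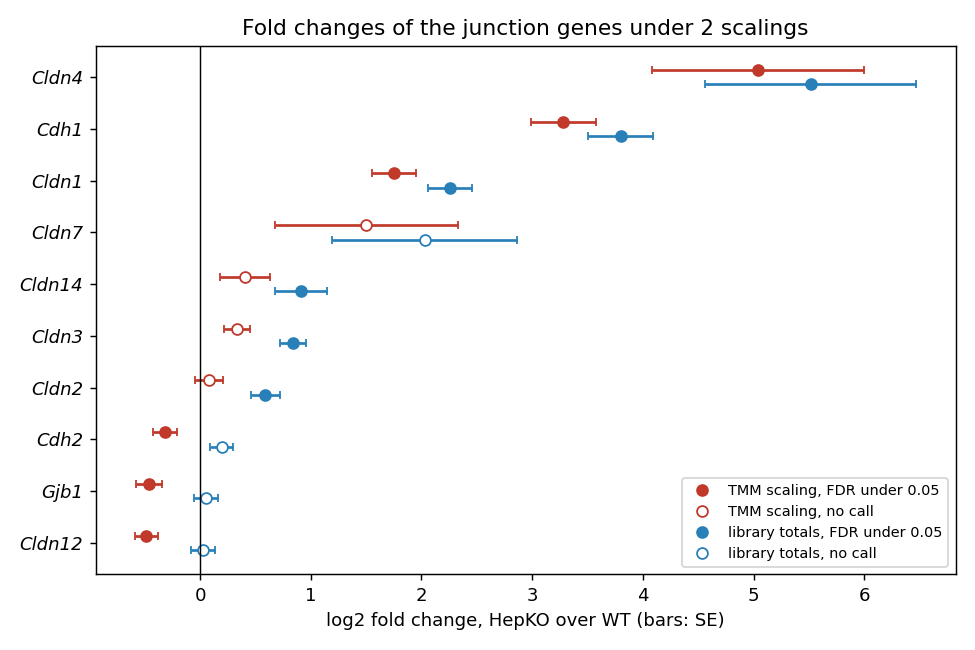
Log2 fold change (HepKO over WT) of each junction gene with its SE, under TMM scaling and under unscaled library totals, with filled points for genes called at an adjusted p under 0.05 in edgeR's test. Cldn4, Cdh1 and Cldn1 are called higher under both scalings, while Cdh2, Gjb1 and Cldn12 are called lower under TMM and not called under library totals. The fitted fold of Cldn4 depends on the prior count, since WT had 3 counts.

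Per kilobase of annotated exon, the order of the levels differed between the groups. In HepKO the order was Gjb1 (168.1 CPM per kilobase), Cldn2 (38.4), Cldn3 (27.3), Cldn1 (25.9), Cdh1 (22.6), Cldn12 (16.6), Cdh2 (11.9), Cldn14 (2.61), Cldn7 (0.727) and Cldn4 (0.592). Among these HepKO levels the library ranges of Cldn3, Cldn1, Cdh1 and Cldn12 overlapped from each to the next, as did those of Cldn7 and Cldn4. In WT the order was Gjb1 (231.3), Cldn2 (36.4), Cldn12 (23.3), Cldn3 (21.7), Cdh2 (14.8), Cldn1 (7.71), Cdh1 (2.32), Cldn14 (1.96), Cldn7 (0.258) and Cldn4 (0.0153). Among the WT levels, Cldn12 overlapped Cldn3, and Cdh1 overlapped Cldn14. Cdh1 stood at place 5 in HepKO and at place 7 in WT, and Cldn12 at place 6 in HepKO and at place 3 in WT.

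Within the 7 claudins, the make-up of the mRNA differed between the groups, most in Cldn1 and Cldn12, a comparison that is free of the scaling. Shares of a whole are tied together, so a larger Cldn1 share leaves less for the rest. Per exon length, Cldn1 made up 23.2% ± 2.68 of the 7 claudins in HepKO and 8.37% ± 1.89 in WT (SD, n = 3 each). Cldn12 made up 14.8% ± 0.897 in HepKO and 25.5% ± 0.915 in WT. Cldn2 was the largest part in both groups, with 34.1% ± 2.04 in HepKO and 39.8% ± 1.41 in WT. Its share was also smaller in each HepKO library (32.4% to 36.4%) than in any WT library (38.2% to 41.01%). Cldn3 held 24.3% ± 1.7 in HepKO and 23.9% ± 2.39 in WT. The log2 ratio of Cldn12 to Cldn1 counts averaged -0.84 ± 0.24 in HepKO and 1.44 ± 0.36 in WT, that of Cldn2 to Cldn1 0.02 ± 0.20 in HepKO and 1.73 ± 0.30 in WT, and that of Cldn3 to Cldn1 -1.87 ± 0.26 in HepKO and -0.41 ± 0.41 in WT (SD, n = 3 each). The groups were separate in all 3 ratios (exact 2-sided permutation test, p = 0.1 for each, the smallest that the design allows). All 3 share Cldn1, which itself rose with separate groups, so they are not separate results.

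**Figure D3:**
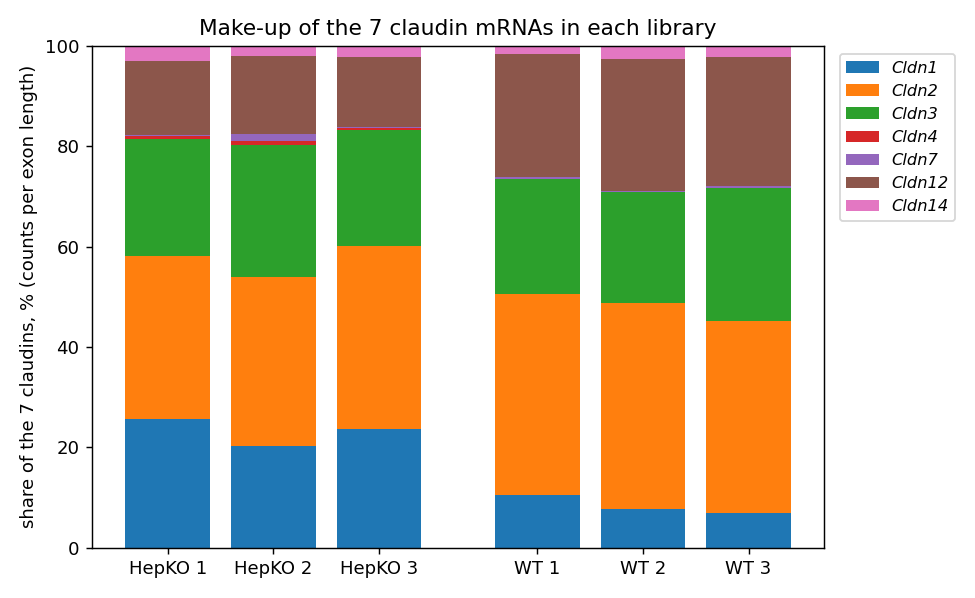
Share of each of the 7 claudins in their summed level, from counts per exon length, in percent, with 1 bar per library and the HepKO libraries left of the WT libraries. The Cldn1 share is larger in the 3 HepKO libraries (20.3% to 25.6%) than in the WT libraries (6.89% to 10.5%), and the Cldn12 share is smaller (13.9% to 15.7% in HepKO, 24.5% to 26.3% in WT).

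Among genes of the same junctions outside the 10, 65 were tested in 6 lists, of which 20 were called higher and 6 lower (median log2 fold change 0.30), where 19.5% and 18.7% of all genes were called. Under library totals 44 were higher and 1 lower (46.4% and 5.84% of all genes). The excess of higher calls rested in part on HepKO replicate 2, but lower calls were fewer than higher calls whichever library was left out. Without HepKO replicate 2, 10 of 66 were higher, a share near the 15.0% of all genes. Only 3 of the 66 were lower, a smaller share than the 14.1% of all genes. Without WT replicate 3, 13 of 68 were higher and 3 lower (13.9% and 12.2% of all genes), without WT replicate 1, 15 and 4 (15.4% and 14.5%), and without WT replicate 2, 15 of 67 and 3 (16.7% and 13.0%). Without HepKO replicate 1, 22 of 67 were higher and 5 lower (16.3% and 17.5%). Without HepKO replicate 3, 14 of 67 were higher and 6 lower, where 2396 and 2316 of all 16753 genes tested were.

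Tight junction partners gave 8 of 25 higher and 3 lower (median 0.30), beside 19.5% and 18.7% of all tested genes. F11r, the adhesion molecule JAM-A, had 143.3, 143.7 and 131 CPM in HepKO replicates 1 to 3, against 73.7, 68.3 and 67.4 CPM in WT replicates 1 to 3 (log2 fold change 0.997 ± 0.09 SE, adjusted p = 2.79e-04 in edgeR's test). The groups lay far apart beside their spread. The scaffold gene Magi3 also rose (log2 fold change 0.85 ± 0.10 SE), as did Cxadr, an adhesion molecule of tight junctions (1.32 ± 0.19). Tjp1, which encodes ZO-1, had 58.4 ± 7.17 CPM in HepKO and 60.3 ± 3.74 CPM in WT, and the membrane protein occludin (Ocln) had 17.7 ± 5.18 CPM in HepKO and 14.8 ± 2.14 CPM in WT (SD, n = 3 each). Neither was called under TMM (adjusted p = 0.78 for Tjp1 and 0.395 for Ocln in edgeR's test), but both were called higher under library totals (0.0121 and 0.0227). The 3 lower genes were Ildr2, which encodes a protein of the angulin family (log2 fold change -2.05 ± 0.48 SE, and -2.63 without HepKO replicate 1), and the scaffold genes Mpdz (-0.41 ± 0.09) and Pard3 (-0.32 ± 0.09). Under library totals Ildr2 stayed lower (-1.54, adjusted p = 0.0278), while Mpdz (0.11) and Pard3 (0.19) had positive values without a call. Pard3 was not called without HepKO replicate 2 (adjusted p = 0.0759) or any WT library (0.0574 to 0.0886).

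Of 13 adherens junction partners 5 were higher and 1 lower (median 0.24), beside 19.5% and 18.7% of all tested genes. Ajuba, a LIM-domain protein recruited to cadherin junctions, had 18.5, 22.45 and 20.9 CPM in HepKO replicates 1 to 3, against 3.65, 3.23 and 3.07 CPM in WT replicates 1 to 3 (log2 fold change 2.64 ± 0.14 SE, adjusted p = 6.98e-05 in edgeR's test). The groups were tight and did not overlap. Vcl, which encodes the actin linker vinculin, rose (0.69 ± 0.11), as did Ctnna1, which encodes alpha-catenin (0.39 ± 0.10), but Ctnna1 was not called without HepKO replicate 2 (adjusted p = 0.0542), HepKO replicate 3 (0.0545) or WT replicate 1 (0.0586). Beta-catenin (Ctnnb1) had 192.7 ± 12.4 CPM in HepKO and 166.7 ± 8.33 CPM in WT and was not called under TMM (adjusted p = 0.126), but library totals gave a called value of 0.72 (adjusted p = 7.63e-04). The lower gene was Nectin3, an adhesion molecule of the nectin family (-0.42 ± 0.11), with 0.09 and no call under library totals, and no call without HepKO replicate 2 (adjusted p = 0.0532), WT replicate 2 (0.0516) or WT replicate 3 (0.0793).

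Of the other cadherin genes 8 of 13 passed the filter, 2 higher and 1 lower (median 1.11), beside 19.5% and 18.7% of all tested genes. Cdh17, known as liver-intestine cadherin and in adult mice typical of the intestine, had 129, 135 and 266 counts in HepKO replicates 1 to 3, against 0, 1 and 0 counts in WT replicates 1 to 3. All HepKO libraries were far above WT, with a ratio of the scaled sums of 371 (95% counting interval 66.3 to 14700, for counting error only) and an adjusted p of 4.48e-04 in edgeR's test. The ratio was 244 without WT replicate 3. With WT replicate 2 left out and 3 counts taken as the WT limit, it was at least 79.2-fold higher. The endothelial cadherin gene Cdh5 rose (log2 fold change 0.74 ± 0.18 SE), with no call without WT replicate 1 (adjusted p = 0.0527) or WT replicate 3 (0.0523). Pcdh1 was lower under TMM (-0.45 ± 0.14), with a log2 fold change of 0.06 under library totals and no call without any 1 of 5 libraries (adjusted p 0.0553 to 0.0987 over them).

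Among claudin genes outside the 7, 4 of 20 measured passed the filter. Cldn5, the claudin of endothelium, was higher (log2 fold change 0.95 ± 0.28 SE, adjusted p = 0.0291), but not without HepKO replicate 1 (0.0955), HepKO replicate 2 (0.0748), WT replicate 1 (0.0678) or WT replicate 3 (0.092). Cldn8 and Cldn34c1 were not called (adjusted p = 0.0655 and 0.154 in edgeR's test). For 6 of the 20 no count was found in any library. Of 8 desmosome genes 2 were higher and 1 lower (median 0.10), beside 19.5% and 18.7% of all tested genes. Perp, a membrane protein of desmosomes, fell under TMM (log2 fold change -0.63 ± 0.09 SE, adjusted p = 0.00162), but under library totals it was not called (-0.12, adjusted p = 0.287). The plaque genes Pkp2 (0.41 ± 0.10) and Dsp (0.62 ± 0.18) rose, and neither call held without HepKO replicate 2 (adjusted p = 0.0536 and 0.101). The Dsp call was also lost without HepKO replicate 3 (0.0786), WT replicate 1 (0.0739) or WT replicate 3 (0.0864).

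Of the other gap junction genes 7 of 16 passed the filter, 2 higher and 0 lower (median 0.02), beside 19.5% and 18.7% of all tested genes. Panx1, a channel gene of the related pannexin family, had 7.47, 4.46 and 8.77 CPM in HepKO replicates 1 to 3, against 0.507, 0.669 and 0.176 CPM in WT replicates 1 to 3 (log2 fold change 3.93 ± 0.47 SE, adjusted p = 7.58e-04 in edgeR's test). Every HepKO library lay above every WT library. Gja1, connexin 43, rose (0.94 ± 0.19), and Gja4 was not called (-0.56 ± 0.30, adjusted p = 0.182). Gjb2, connexin 26, the second connexin of mouse hepatocytes, had 301.9, 350.7 and 319.8 CPM in HepKO replicates 1 to 3, against 373, 349.4 and 381.6 CPM in WT replicates 1 to 3, and was not called under TMM (-0.18 ± 0.10, adjusted p = 0.2), while library totals gave 0.33 (adjusted p = 0.0273). The log2 ratio of Gjb2 to Gjb1 counts was 0.11, 0.33 and 0.09 in HepKO replicates 1 to 3, against -0.04, -0.01 and -0.23 in WT replicates 1 to 3, a difference of 0.27 with separate groups (exact 2-sided permutation test, p = 0.1, the smallest that the design allows).

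**Figure D4:**
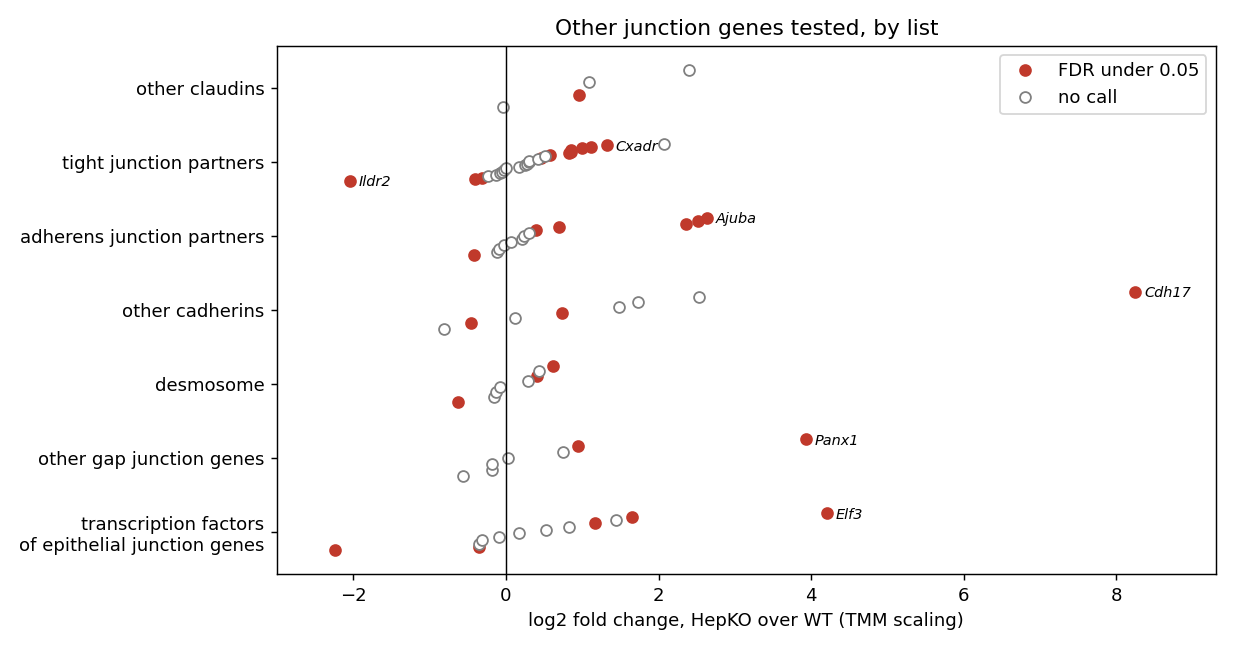
Log2 fold change (HepKO over WT, TMM scaling) of the tested genes in 7 lists of other junction genes and of their transcription factors, with red points for genes called at an adjusted p under 0.05 in edgeR's test. Among the 77 points 23 are called to the right of 0 and 8 to the left, under library totals 48 and 1, and without HepKO replicate 2, 13 and 3. The shares over all tested genes are 19.5% and 18.7%, under library totals 46.4% and 5.84%, and without HepKO replicate 2, 15.0% and 14.1%. The fitted fold of Cdh17 depends on the prior count, since WT had 1 count.

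Of the transcription factors that act on epithelial junction genes, 3 of 12 tested were higher and 2 lower (median 0.34). These counts are near the shares over all tested genes, 19.5% higher and 18.7% lower. Elf3, an ETS factor of epithelia, had 5.36, 7.4 and 5.06 CPM in HepKO replicates 1 to 3, against 0.203, 0.223 and 0.527 CPM in WT replicates 1 to 3 (log2 fold change 4.20 ± 0.41 SE, adjusted p = 3.34e-04 in edgeR's test). It was clearly separated, and its log2 fold change was 4.80 without WT replicate 3. Zeb2, a repressor of the E-cadherin gene, also rose (1.17 ± 0.18), and so did Grhl1, a grainyhead factor (1.65 ± 0.40), though not without HepKO replicate 3 (adjusted p = 0.0514). The 2 lower genes were Twist1, near the detection limit at 0.157 CPM in HepKO and 0.743 CPM in WT, and Hnf4a, a master regulator of hepatocytes (-0.35 ± 0.11). Neither was called under library totals, where Hnf4a had a log2 fold change of 0.16, and leaving out any 1 library ended the call of Hnf4a (adjusted p 0.052 to 0.114), as did any but WT replicate 3 for Twist1 (0.0527 to 0.134). The repressor genes Snai1, Snai2 and Zeb1 were not called under TMM (adjusted p = 0.466, 0.171 and 0.519), and Zeb1 was called higher under library totals (0.0125).

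Markers of cholangiocytes moved with some of these genes. In bulk liver RNA, fewer or more cells of a type and a change of RNA per cell cannot be told apart. Of 9 cholangiocyte markers tested, 4 were higher and 0 lower (Spp1, Sox9, Cftr and Epcam), and 6 were higher under library totals. Over all tested genes 19.5% were called higher and 18.7% lower, and under library totals 46.4% were called higher. The summed level of the 10 markers was 165.6, 595.3 and 252.4 CPM in HepKO replicates 1 to 3, against 71.5 to 80.7 CPM in WT. Spp1 made up most of that sum in HepKO, with 134.1, 515 and 200.8 CPM in HepKO replicates 1 to 3, against 35.2 to 54.4 CPM in WT. The other 9 markers summed to 31.5, 80.3 and 51.6 CPM in HepKO replicates 1 to 3, against 41.4, 26.3 and 31.6 CPM in WT replicates 1 to 3, so HepKO replicate 1 lay inside the WT range. Onecut1, 1 of these 9, had 3.74, 6.13 and 17.99 CPM in HepKO replicates 1 to 3. In WT replicates 1 to 3 it had 15.61, 4.65 and 13.88 CPM, and the overlap of the sums rested on it. The markers did not move alike. Sox9 (9.68, 23.8 and 16.5 CPM in HepKO, 2.75 to 7.16 CPM in WT), Epcam (2.05, 12.15 and 2.19 CPM in HepKO, 0.473 to 1.58 CPM in WT) and Cftr (0.517, 3.48 and 0.508 CPM in HepKO, 0 to 0.223 CPM in WT) were above WT in all 3 HepKO libraries. The bile duct keratin gene Krt19 had 0.792, 5.15 and 0.203 CPM in HepKO replicates 1 to 3, against 0.574 to 0.78 CPM in WT, and was far above WT in HepKO replicate 2 alone. HepKO replicate 2 was the highest library for Cdh1, Cldn4 and Cldn7 as for Spp1, Sox9, Epcam, Cftr and Krt19. Without it the log2 fold change was 3.14 for Cdh1 (adjusted p = 0.00151) and 1.81 for Cldn1 (0.00277), and the ratio of Cldn4 was 25.9 (0.0206), while Epcam (0.191) and Cftr (0.135) were not called and 2 of 9 markers were. Of all genes tested without HepKO replicate 2, 15.0% were called higher. The call of Epcam was also lost without WT replicate 1 (0.123), 2 (0.101) or 3 (0.0733), and that of Cftr without WT replicate 1 (0.0732) or 3 (0.0996). The part of cholangiocytes in the changes of the junction genes was not tested.

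**Figure D5:**
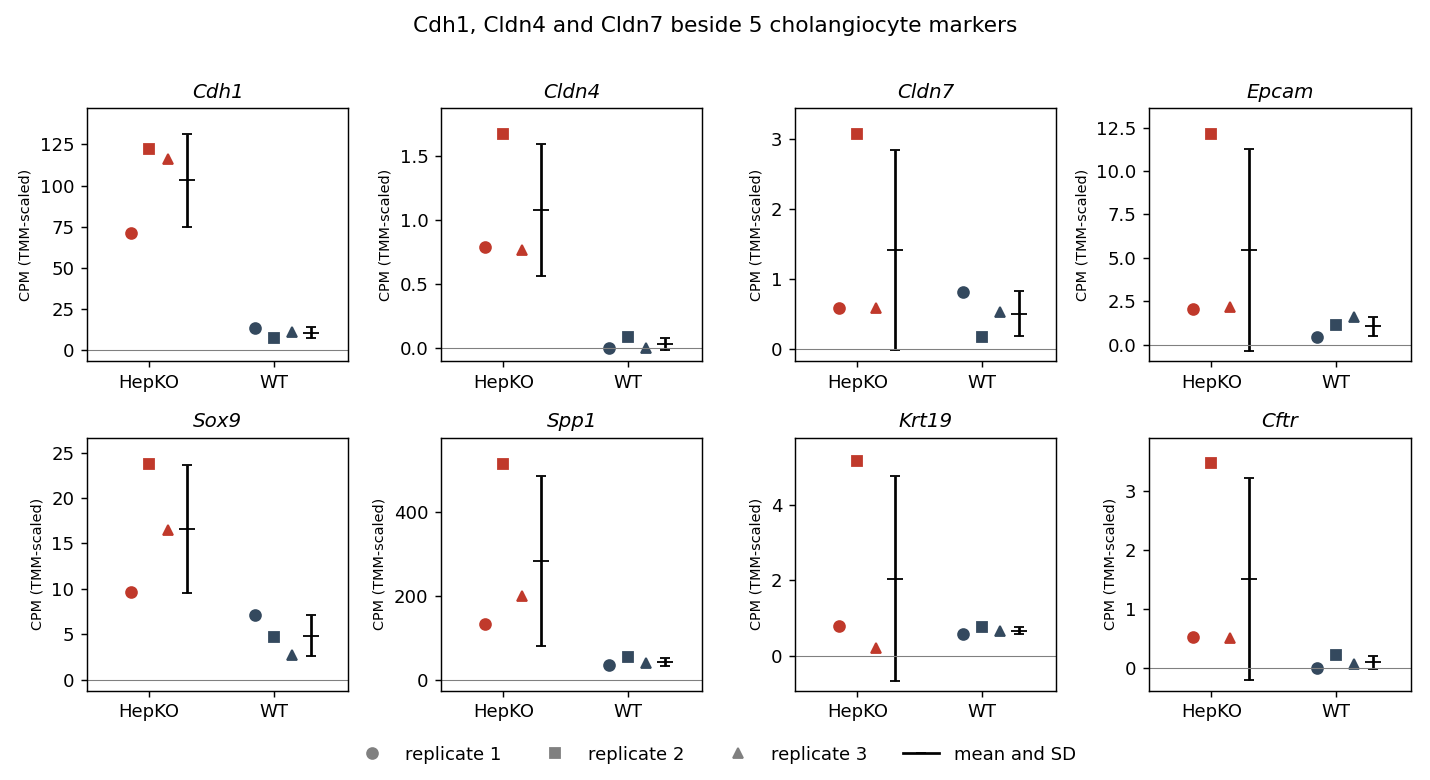
Levels of Cdh1, Cldn4, Cldn7 and 5 cholangiocyte markers in CPM (TMM-scaled, linear axes), with HepKO libraries left of WT libraries, 1 marker shape for each replicate number, and black bars for mean and SD of 3 libraries. HepKO replicate 2 (square) is the highest HepKO library in all 8 panels, and for Cdh1 the HepKO libraries are at 70.99, 122.3 and 116.1 CPM.

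Markers of other cell types and zones of the lobule were counted in the same way. Over all tested genes 19.5% were called higher and 18.7% lower under TMM, and 46.4% and 5.84% under library totals. All 7 hepatocyte markers measured were lower under TMM, and 4 of them under library totals, with a summed level of 38570 to 45720 CPM in HepKO and 85820 to 109300 CPM in WT. Of 8 Kupffer cell and macrophage markers 7 were higher, and 8 under library totals (404.8 to 729 CPM in HepKO and 155.8 to 305.1 CPM in WT). Of 8 stellate cell and fibroblast markers 4 were higher, and 6 under library totals (358.8 to 514 CPM in HepKO and 105.3 to 173.7 CPM in WT). Of 8 endothelial markers 1 was higher, Cdh5, with 6 under library totals and 0 without WT replicate 1 or WT replicate 3, and the sums overlapped (147.8 to 185.3 CPM in HepKO and 123.9 to 154.8 CPM in WT). Of 8 lymphocyte markers 2 were higher, Cd3g and Ptprc, and 3 under library totals. Ptprc, a gene of all leukocytes including macrophages, made up most of that list's sum, and the other 7 summed to 4.21 to 9.06 CPM in HepKO and 2.66 to 4.04 CPM in WT. Of 4 mesothelial markers tested 0 were higher and 1 lower under TMM, with 0 lower under library totals, 2 without HepKO replicate 1 and 0 without any other library, and the sum of the list was near 0, at 1.88 to 3.92 CPM in HepKO and 1.67 to 4.26 CPM in WT. Of 8 periportal hepatocyte markers, the zone where E-cadherin is known to be highest, 0 were higher and 6 lower, or 5 under library totals (3997 to 4856 CPM in HepKO and 9445 to 11150 CPM in WT). Of 8 pericentral markers 2 were higher and 5 lower under both scalings, with 1 higher when any library but WT replicate 2 was left out (5056 to 5258 CPM in HepKO and 16550 to 22550 CPM in WT). The part of these cells and zones in the junction gene changes was not tested.

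For the 3 most abundant of the 10 genes in CPM, the nearest other genes in pattern were looked up among all tested genes, by the root mean square difference of log2(CPM + 1) values, each centred on its mean over the 6 libraries. Nearest to Gjb1 were Dmac1 (0.0268) and Pex6 (0.04), nearest to Cldn2 were Ccdc51 (0.0358) and Tmem167 (0.0447), and nearest to Cdh2 were Arl6ip1 (0.0331) and Pja1 (0.0355). Among the 10 genes themselves, Gjb1 and Cdh2 were nearest to each other (0.105), as were Cldn2 and Cldn3 (0.183). Cdh1 had no close match among them, with 0.788 to its nearest, Cldn1.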

How the data were processed

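Per the labels' protocols, RNA was purified from liver with a column kit and polyA RNA went into stranded libraries. The authors deposited raw counts, whole numbers of reads for each gene. The submitters' processing notes name mm10 and the tools featureCounts (Subread 2.0.0), STAR 2.7.11a, edgeR 3.40.2 and bcl2fastq, without their roles. Which annotation and strand setting the counting used is not given in the sources used here. Of 56350 Ensembl IDs, 55480 matched GENCODE M21 (GRCm38) without version, which gave symbols, coordinates and exon lengths.

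Genes were filtered with filterByExpr, scaled by TMM and tested with the quasi-likelihood test of edgeR 4.0.16 (R 4.3.3), HepKO against WT, with adjustment over 16051 genes. SE is the log2 fold change over the square root of F. The method was tested on simulated counts. Ratios used counts plus 0.5. Pairs of libraries in a group differed far more than counting error allows (24.2 to 117 times by chi-square over its degrees of freedom). Alternatives were DESeq2 1.42.0, limma-voom (limma 3.58.1), RLE factors, library totals, other filters and thresholds, a replicate block and leaving out each library. The members and lists were chosen with earlier results of these data known. The naming rule took the 10 genes, Atg14, the 3 genes of smallest p in each list and the nearest patterns, of which 1 gene is not reported here. Wbscr25, Xist, Ddx3y, Alb, Tjp1, Ocln, Ctnnb1, Gjb2, Snai1, Snai2, Zeb1, Krt19, Onecut1 and Epcam were named after their values were seen. So were Cxadr, Ildr2, Mpdz, Pard3, Nectin3, Twist1, Hnf4a, Cd3g and Ptprc. The leading genes of the marker lists other than cholangiocytes are given only as list sums. Cldn25 and Tf of the lists were not matched to the table by symbol.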

Additional observations from a re-analysis of the deposited data

How the results depend on the processing

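Cdh1, Cldn1 and Cldn4 kept direction and call under every alternative that tested them (Cldn4 and Cldn7 did not pass the filter of 1 CPM in 3 libraries). Under library totals 7442 genes were higher and 937 lower. The members then gave 6 higher and 0 lower, and the 7 other lists, transcription factors included, 48 higher and 1 lower. The log2 fold change was then 0.59 for Cldn2, 0.84 for Cldn3 and 0.91 for Cldn14, all called, and without a call 0.0255 for Cldn12, 0.20 for Cdh2 and 0.053 for Gjb1, all reversed. The cause was not tested. At an FDR of 0.01, 1751 genes were higher and 1693 lower, 1 junction gene was lower, and 11 genes of the other lists were higher and 1 lower. With the added demand of a 2-fold change, 2063 and 922 genes, 0 lower junction genes, and 10 and 2 of the other lists remained. Cdh2 lost its call with RLE factors (-0.30), the 1 CPM filter (-0.29) and no filter (-0.33), and Cldn3 gained one with the 1 CPM filter (0.36).

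Leaving out 1 library at a time gave 1 to 3 lower junction genes, 13 to 25 higher and 3 to 6 lower genes in the other lists, and log2 fold changes of -0.0224 (reversed, without HepKO replicate 3) to 0.17 for Cldn2, 0.24 to 0.42 for Cldn3, -0.40 to -0.24 for Cdh2 and -0.51 to -0.34 for Gjb1. With the replicate number as a block, 2569 genes were higher and 2502 lower, the members stayed at 3 higher and 3 lower, and 5 genes of the other lists were lower. Same-numbered libraries did not deviate together (correlations of -0.125, -0.068 and 0.002), so the numbers were not taken as pairs. The ratios of 3 against 3 libraries cannot pass 0.05. Cldn4 and Cldn7 rest on few counts, so their folds are imprecise.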
